A study of Mus musculus with 6 samples.

Results

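Heat shock proteins and their cochaperones were followed in mouse blood stem cells that carried Vav-Cre and floxed alleles of beta-catenin, and in control cells. The group was a list of 37 genes, chosen by name, and 35 of them had at least 1 probe set annotated to that gene alone. Of these, 34 had a probe set bright enough to be tested, among 14586 genes tested in all. They rested on 353 of the 404 probe sets that carried a member's symbol alone. Hspa1b and Hspb1 had no probe set of their own, because the probe sets that named them also named another gene, and the single probe set of Hspa1a lay below the brightness limit. Hspa1a and Hspa1b, which encode the heat-inducible HSP70, and Hspb1, which encodes a small heat shock protein, were therefore not tested.

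Heat shock proteins are molecular chaperones that bind unfolded protein, and some of them, such as HSP70, release it in cycles driven by ATP. HSP70 takes its substrates from J-domain cochaperones, nucleotide exchange factors such as the HSP110 and BAG proteins reset it, and HSP90 finishes the folding of kinases and receptors with cochaperones of its own. Heat and oxidants activate the transcription factor HSF1, which binds heat shock elements in promoters, whereas unfolded protein in the endoplasmic reticulum acts on a separate set of promoters. Blood stem cells are known for low rates of protein synthesis and for sensitivity to unfolded protein.

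The arrays held 3 samples of floxed, Vav-Cre positive mice and 3 control samples, and the labels give no genotype for the controls beyond that word. All 6 samples were haematopoietic stem cells sorted from bone marrow by the gate named KLSCD34-, which stands for cells with c-Kit and Sca-1 on their surface and without lineage markers or CD34. Vav-Cre recombines in blood-forming cells, and age, sex and pooling of animals are not given in the sources used here. Nothing in the labels says that replicates were separate animals, so the spread behind each p-value is that of these 6 samples and could be technical. The series title names oxidative stress, and the comparison asks which transcripts differ with the floxed alleles.

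On the 5 probe sets of Ctnnb1, the beta-catenin gene, that were lower by over 2 log2 units, the median level was 5.54, 6.74 and 6.11 log2 in floxed arrays, against 11.52, 11.55 and 11.62 log2 in controls. That separation follows from how the 5 were picked. The other 12 probe sets of the gene had medians of 10.99, 10.88 and 11.23 log2 in floxed arrays, against 10.95, 11.49 and 11.29 log2 in controls, with overlap, and the sources used here place none of them on exons. Correlations across genes were 0.962 to 0.972 between floxed arrays and 0.880 to 0.934 between controls, so the controls stood further apart from one another. Stem cell markers were tested for 13 of 15 listed genes, and none passed in limma (smallest adjusted p = 0.999). The 2 with the smallest p were Hoxa9, a homeobox gene with all floxed values above all controls (log2 fold change 0.37, SE 0.13), and Ctnnal1 (0.31, SE 0.19). Kit, the receptor of the gate, had 11.73 ± 0.11 log2 in floxed arrays and 11.84 ± 0.06 log2 in controls (SD, n = 3 each). Cd34, whose surface protein the gate excludes, had a high transcript level of 12.65 ± 0.04 log2 in floxed arrays and 12.68 ± 0.03 log2 in controls. This transcript level gives no support to the CD34 part of the gate. It is not a measure of surface protein, so it cannot decide that part, and the reason for the high level was not tested. No detection calls were used, so a level does not show that a transcript was present, and the bulk samples cannot tell fewer cells of a type from less RNA per cell.

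No heat shock protein or cochaperone gene passed the threshold between floxed and control arrays. In limma, 0 of 34 members had an adjusted p under 0.05 (smallest adjusted p = 0.999), as did 0.00% of all genes tested. Of the 34 members, 27 lay on the higher side in floxed arrays and 7 on the lower side, with a median log2 fold change of 0.09, against 54.2% of all genes on the higher side and a median of 0.02. The differences were small, since 17 members had an absolute log2 fold change under 0.1, 13 had 0.1 to 0.3 and 4 had 0.3 or more. All 34 confidence intervals (95%) lay within 1 log2 unit of 0, from −0.53 at the lowest bound to 0.99 at the highest. An unadjusted limma p under 0.05 was reached by 2 members, both higher in floxed arrays, where 2.43% of all genes did so in that direction, 1.28% in the lower direction and 3.70% in either. That count was 8 (23.5%, against 16.6% of all genes) when control replicate 1 was left out, 10 (29.4% against 22.2%) with array weights and 4 (11.8% against 3.61%) for probe-set means. It was 1 when floxed replicate 1 (2.94% against 1.47%) or control replicate 3 (2.94% against 3.74%) was left out. Groups did not overlap for 4 members, Dnaja1, Dnajc7, Dnaja2 and Hspa9, all higher in floxed arrays, against a background of 5.57% of genes in that direction, 2.87% in the lower direction and 8.44% in either. Those 4 are 11.8% of the members.

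**Figure D1:**
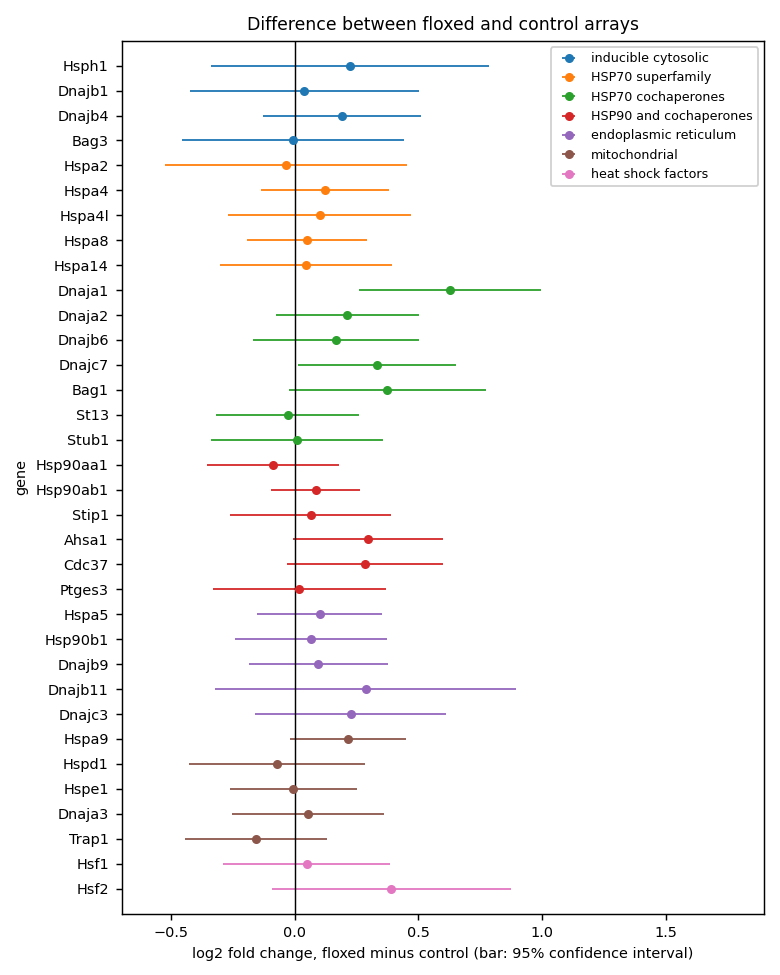
Log2 fold change, floxed minus control, of the 34 tested members, ordered by role (y axis) with 95% confidence intervals as bars. The interval excludes 0 for Dnaja1 and Dnajc7 alone, and every interval stays between −0.53 and 0.99.

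The direction leaned on 1 control array. Control replicate 3 held the lowest value of 20 of the 34 members (58.8%) and the highest value of none, whereas over all genes tested it held the lowest value of 34.7% and the highest of 18.5%. The share differed within the members, with 4 of 4 inducible and 1 of 5 mitochondrial members lowest there. Outside the list, mitochondrial protein quality genes had a similar share, 9 of 16 (56.25%) lowest and 0 highest there. Other heat shock and cochaperone genes were lowest there for 13 of 33 (39.4%) and unfolded protein response genes for 8 of 24 (33.3%). The median deviation of the members from their own means was 0.11, −0.01 and 0.10 log2 on floxed replicates 1, 2 and 3, against 0.03, −0.04 and −0.18 log2 on control replicates 1, 2 and 3. Over all genes the same deviation on control replicate 3 was −0.08 log2. Floxed replicates 1 and 3 were thus high and control replicate 3 low, while floxed replicate 2 lay among the other controls. Without control replicate 3, 21 of 34 members lay on the higher side against 50.5% of all genes, and the median log2 fold change was 0.05. With quantile normalization the array held the lowest value of 15 members (44.1%) against 20.6% of all genes, and with equal array medians of 17 (50.0%) against 24.8%. In each of those settings it also held the highest value of 3 members. For probe-set means it held the lowest value of 28 members (82.4%) against 41.9% of all genes.

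**Figure D2:**
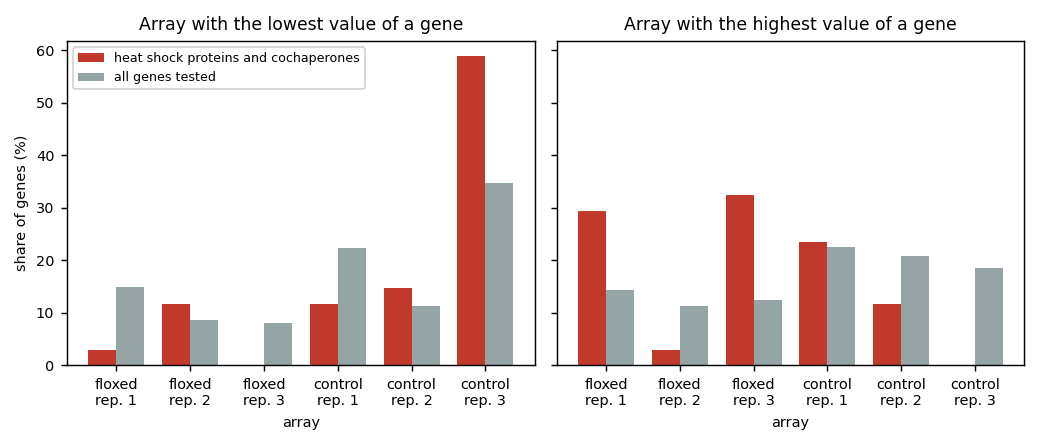
Share of genes in percent (y axis) whose lowest (left) or highest (right) value fell on each of the 6 arrays (x axis), for the tested heat shock proteins and cochaperones and for all genes tested. Control replicate 3 held the lowest value of 58.8% of the members and of 34.7% of all genes.

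Markers of other cell types lay in different orders on that array. Of 9 tested B cell markers 8 were lowest on control replicate 3, and their summed linear level was 4380 to 7077 in floxed arrays and 3261 to 9040 in controls. Of 17 granulocyte and macrophage markers 9 were lowest there, with a sum of 16631 to 23519 in floxed arrays and 15330 to 28468 in controls. Erythroid and megakaryocyte markers were lowest there for 0 of 12, T and NK cell markers for 1 of 6 with 3 highest there, and stroma and endothelium markers for 1 of 8 with 5 highest there. Both sums overlapped between the groups, as did those of erythroid and megakaryocyte markers, 18477 to 23677 in floxed arrays and 21884 to 23232 in controls, and of T and NK cell markers, 2864 to 3379 in floxed arrays and 2841 to 4018 in controls. Of the neutrophil granule genes, Ngp stood at −0.88 (SE 0.28) and Mmp8 at −1.03 (SE 0.36) in log2 fold change, both with overlapping groups. Of the 17 granulocyte and macrophage markers 13 lay on the lower and 4 on the higher side. The higher side held the granule genes Ctsg at 0.46, Prtn3 at 0.19 and Mpo at 0.05. Of 12 erythroid and megakaryocyte markers 11 lay on the lower and 1 on the higher side. Of 6 T and NK cell markers 5 lay lower, as did 6 of 8 stroma and endothelium and 5 of 9 B cell markers. Unadjusted limma p was under 0.05 for 2 erythroid and megakaryocyte (16.7%) and 2 granulocyte and macrophage markers (11.8%), all lower. Over all genes that share was 3.70%. No tested marker passed in limma (smallest adjusted p = 0.999). For the B cell and the granulocyte lists, the dimmest tested genes, Vpreb3 and Ly6g, had means of 8.09 and 7.87 log2. Values on this scale have no 0. Whether admixed cells or the quality of this array had a part in the members' levels was not tested.

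The heat-inducible cytosolic chaperones showed the widest spread between controls. Hsph1 encodes HSP110, an exchange factor of HSP70, and had 9.09, 8.75 and 9.42 log2 in floxed arrays, against 8.89, 9.36 and 8.33 log2 in controls. The highest value stood on floxed replicate 3 and the lowest on control replicate 3, and the groups overlapped. Its log2 fold change was 0.22 (SE 0.25, 95% confidence interval −0.34 to 0.79), and without control replicate 3 it was −0.04. All 19 tested probe sets of Hsph1 lay on the higher side, from 0.02 to 0.69. Dnajb4, a J-domain protein, had 9.99, 9.90 and 10.10 log2 in floxed arrays, against 10.03, 9.76 and 9.62 log2 in controls (log2 fold change 0.19, SE 0.14). Control replicate 1 stood among the floxed values.

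Dnajb1, the main heat-inducible J-domain partner of HSP70, had 9.04, 9.12 and 9.22 log2 in floxed arrays, against 9.49, 9.17 and 8.60 log2 in controls. The floxed arrays lay close together (SD 0.09) between controls that spread over almost a log2 unit (SD 0.45), and the log2 fold change was 0.04 (SE 0.21). Bag3, a BAG cochaperone that links HSP70 to selective autophagy, had −0.01 (SE 0.20), with its highest value on control replicate 1 and its lowest on control replicate 3. All 4 tested inducible genes were lowest on control replicate 3. The 1 dim probe set of Hspa1a had 5.63, 5.94 and 6.0 log2 in floxed arrays, against 6.72, 5.88 and 5.90 log2 in controls, below the brightness limit of 7.60 and with overlapping groups.

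Immediate early genes, which cell handling and sorting are known to induce, gave a different order of arrays. Of 11 tested genes 8 were lowest on floxed replicate 3, the array on which Hsph1 and Dnajb4 were highest. The median deviation of the immediate early list was −0.05, 0.26 and −0.59 log2 on floxed replicates 1, 2 and 3, and 0.31, −0.09 and 0.06 log2 on control replicates 1, 2 and 3. None of the 11 passed, and Dusp1, a phosphatase gene of that list, had −0.41 (SE 0.23, limma adjusted p = 0.999), while Zfp36, which destabilises mRNAs, had −0.29 (SE 0.18).

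Among the constitutive HSP70 and HSP110 genes of cytosol and nucleus the groups overlapped for all 5. Hspa8 encodes the constitutive HSC70, and had 13.17, 13.03 and 12.84 log2 in floxed arrays, against 13.00, 12.80 and 13.09 log2 in controls. The values interleaved, with a log2 fold change of 0.05 (SE 0.11, 95% confidence interval −0.19 to 0.29). Hspa4, an HSP110 relative, had 11.22, 10.98 and 11.03 log2 in floxed arrays, against 11.05, 10.96 and 10.85 log2 in controls (log2 fold change 0.12, SE 0.12). Its testis-enriched relative Hspa4l had 8.87, 8.66 and 8.97 log2 in floxed arrays, against 8.80, 8.91 and 8.50 log2 in controls (log2 fold change 0.10, SE 0.17). Floxed replicates 2 and 3 of Hspa4, and floxed replicates 1 and 2 of Hspa4l, lay inside the range of the controls. Hspa14, which acts at the ribosome, had 0.05 and the testis-enriched Hspa2 had −0.04, the value of Hspa2 resting on 1 probe set.

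The cytosolic cochaperones of HSP70 held the largest difference of the whole list, that of Dnaja1. Dnaja1, a J-domain cochaperone of HSC70, had 9.31, 9.24 and 9.33 log2 in floxed arrays, against 8.78, 8.86 and 8.35 log2 in controls. All floxed values lay above all controls and close together (SD 0.05, against 0.27 in controls). The log2 fold change was 0.63 (SE 0.17, 95% confidence interval 0.26 to 0.99), with an unadjusted limma p of 0.00331 and an adjusted p of 0.999. By exact permutation of the arrays the two-sided p was 0.1, below which a design of 3 against 3 cannot go.

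The Dnaja1 value rested on 3 probe sets that differed among themselves. One of them, with the smallest p, had 9.13, 9.24 and 9.30 log2 in floxed arrays, against 8.60, 8.52 and 8.06 log2 in controls (SE 0.22 around a log2 fold change of 0.83, limma adjusted p = 0.975). The brightest had 0.23 (SE 0.16) and overlapping groups, since control replicate 3 with 10.58 log2 stood among floxed values of 10.45, 10.62 and 10.66 log2. With a limit at the 75th percentile of brightness only that probe set remained, and the gene then had 0.23. Without control replicate 3 the gene had 0.47, and the groups still did not overlap.

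The promoter of Dnaja1 is shown because this gene differed most, with the bases upstream of the first of its 3 RefSeq starts on the plus strand of GRCm38.p6, at chr4:40722318-40722467. Capitals mark a heat shock element, spelled GAANNTTC, whose first base lies at position −124 relative to that start. The windows of its other RefSeq starts, at chr4:40722922 and chr4:40722930, held no heat shock element.

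Dnaja1: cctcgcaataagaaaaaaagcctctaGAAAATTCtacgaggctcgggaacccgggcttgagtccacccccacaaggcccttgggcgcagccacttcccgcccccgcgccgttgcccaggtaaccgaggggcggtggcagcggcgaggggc

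Dnajc7, which binds both HSP70 and HSP90, had 10.37, 10.14 and 10.06 log2 in floxed arrays, against 10.04, 9.84 and 9.69 log2 in controls. The groups did not overlap, but floxed replicate 3 stood just above control replicate 1. The log2 fold change was 0.33 (SE 0.15, 95% confidence interval 0.01 to 0.65, limma adjusted p = 0.999), and all 11 tested probe sets lay on the higher side, from 0.03 to 0.61. Dnaja2, a relative of Dnaja1, had 9.99, 10.13 and 10.13 log2 in floxed arrays, against 9.98, 9.72 and 9.91 log2 in controls (log2 fold change 0.21, SE 0.13). Its groups did not overlap either, with floxed replicate 1 just above control replicate 1.

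Bag1, an exchange factor that couples HSP70 to the proteasome, had 9.80, 9.39 and 9.45 log2 in floxed arrays, against 9.47, 9.13 and 8.91 log2 in controls, with overlap at control replicate 1 and a log2 fold change of 0.37 (SE 0.18). Dnajb6, which keeps aggregating proteins soluble, had 0.17 (SE 0.15). The remaining cochaperones stood near 0, with St13, the HSP70-interacting protein HIP, at −0.03 and Stub1, the ubiquitin ligase CHIP, at 0.01. Over the 7 cochaperones the median log2 fold change was 0.21, and 6 lay on the higher side. Leaving out single arrays moved that median between 0.14 and 0.32.

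**Figure D3:**
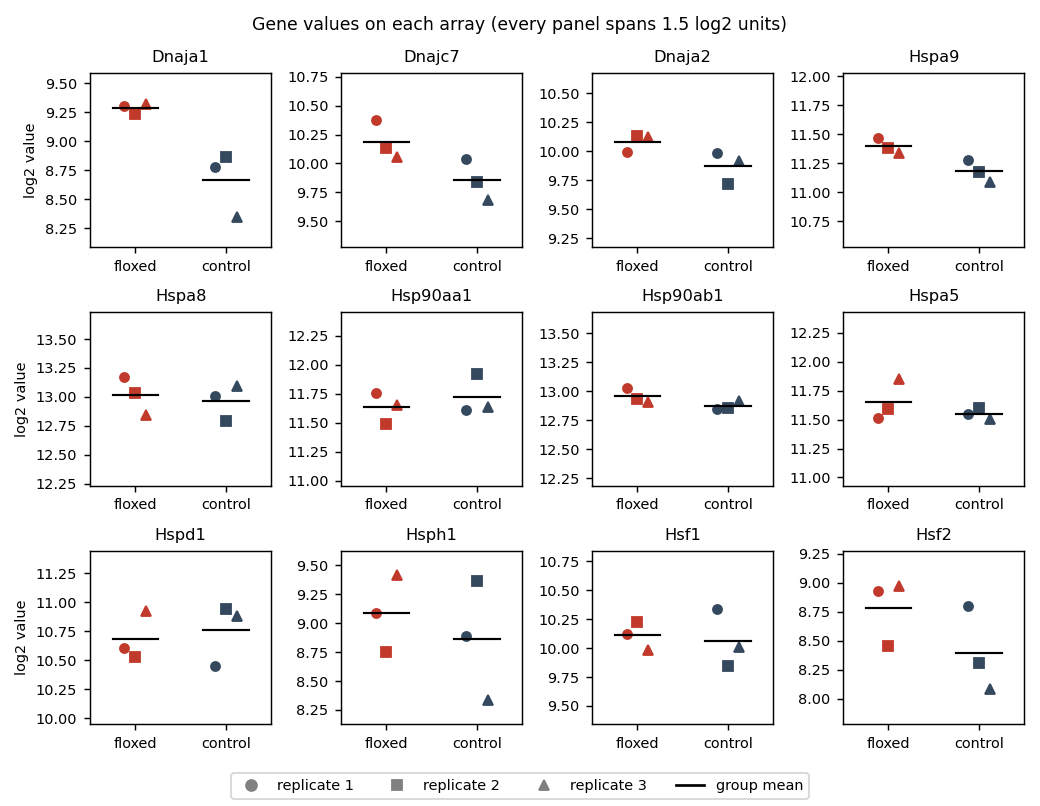
Log2 gene values (y axis, each panel spanning 1.5 log2 units) of 12 members on the floxed and control arrays (x axis), with a symbol for each replicate number and a line at the group mean. Dnaja1, Dnajc7, Dnaja2 and Hspa9 have all floxed values above all controls, and the other 8 panels overlap.

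Both cytosolic HSP90 genes were close between the groups. Hsp90aa1, the heat-inducible form, had 11.76, 11.49 and 11.66 log2 in floxed arrays, against 11.61, 11.92 and 11.63 log2 in controls. The highest and lowest values were a control and a floxed array, and the log2 fold change was −0.09 (SE 0.12, 95% confidence interval −0.35 to 0.18). Hsp90ab1, the constitutive form, had 13.02, 12.93 and 12.91 log2 in floxed arrays, against 12.84, 12.85 and 12.91 log2 in controls. Its log2 fold change of 0.09 (SE 0.08, 95% confidence interval −0.09 to 0.26) had the narrowest standard error of the members.

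Ahsa1 and Cdc37 had the largest log2 fold changes among the HSP90 cochaperones. Ahsa1, which activates the ATPase of HSP90, had 10.63, 10.51 and 10.77 log2 in floxed arrays, against 10.37, 10.52 and 10.13 log2 in controls (log2 fold change 0.30, SE 0.14). Cdc37, which loads kinases onto HSP90, had 10.17, 9.89 and 10.01 log2 in floxed arrays, against 9.69, 9.93 and 9.60 log2 in controls (log2 fold change 0.29, SE 0.14). For each, floxed replicate 2 lay just below control replicate 2, so the groups overlapped by 1 array. All 9 tested probe sets of Ahsa1 and all 8 of Cdc37 lay on the higher side. Stip1, the adaptor HOP between HSP70 and HSP90, had 0.06 and Ptges3, the cochaperone p23, had 0.02.

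The chaperones of the endoplasmic reticulum lay slightly on the higher side, 5 of 5, with a median log2 fold change of 0.10 and none passing. Hspa5 encodes BiP, the HSP70 of this compartment, and had 11.51, 11.59 and 11.85 log2 in floxed arrays, against 11.55, 11.60 and 11.50 log2 in controls. Floxed replicate 3 alone stood above the controls, and without it the log2 fold change of 0.10 (SE 0.11) became −0.00060. One of its 9 tested probe sets differed from the rest, with 10.93, 11.10 and 10.97 log2 in floxed arrays, against 10.56, 10.52 and 10.36 log2 in controls (SE 0.14 around a log2 fold change of 0.52, limma adjusted p = 0.975). The other 8 ran from −0.10 to 0.18.

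Dnajc3, which restrains the kinase PERK, had 10.01, 9.92 and 10.20 log2 in floxed arrays, against 10.07, 9.95 and 9.44 log2 in controls, so floxed replicate 2 lay below control replicates 1 and 2. Its log2 fold change was 0.23 (SE 0.18), and 0.04 without control replicate 3. Dnajb11, a J-domain partner of BiP, had 9.44, 9.12 and 9.72 log2 in floxed arrays, against 9.73, 9.19 and 8.49 log2 in controls (log2 fold change 0.29, SE 0.28). The control SD of 0.62 was the widest of the members, and without control replicate 3 the difference was −0.03. Hsp90b1, which encodes the HSP90 of this compartment, GRP94, had 0.07 and Dnajb9, another J-domain partner of BiP, had 0.10.

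Promoters of 3 of these genes are shown because they share the endoplasmic reticulum stress element, whose letters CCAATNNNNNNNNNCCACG on either strand are in capitals. The windows are the 250 bases before the RefSeq start in GRCm38.p6, for Hspa5 at chr2:34771840-34772089 on the plus strand, for Hsp90b1 at chr10:86705445-86705694 on the minus strand and for Dnajc3 at chr14:118937682-118937931 on the plus strand. The promoter of Hsp90b1 holds the element in both orientations.

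Hspa5: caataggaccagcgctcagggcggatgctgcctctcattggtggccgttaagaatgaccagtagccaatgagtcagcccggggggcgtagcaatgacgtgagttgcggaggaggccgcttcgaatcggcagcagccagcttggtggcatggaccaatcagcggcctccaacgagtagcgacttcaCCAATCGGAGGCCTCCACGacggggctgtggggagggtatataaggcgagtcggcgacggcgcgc
Hsp90b1: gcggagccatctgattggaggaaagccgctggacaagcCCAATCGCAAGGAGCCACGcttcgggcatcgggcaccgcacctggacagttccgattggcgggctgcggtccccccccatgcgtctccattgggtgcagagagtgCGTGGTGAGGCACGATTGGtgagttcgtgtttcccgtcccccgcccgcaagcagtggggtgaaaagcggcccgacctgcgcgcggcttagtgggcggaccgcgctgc
Dnajc3: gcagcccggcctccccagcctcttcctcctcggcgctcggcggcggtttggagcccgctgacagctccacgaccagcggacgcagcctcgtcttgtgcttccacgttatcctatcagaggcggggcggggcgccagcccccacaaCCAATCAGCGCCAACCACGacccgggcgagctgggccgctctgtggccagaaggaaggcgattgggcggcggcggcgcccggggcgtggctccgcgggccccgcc

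Other genes of the unfolded protein response gave no wider pattern. Of 24 tested genes 0 passed in limma and 0 had an unadjusted p under 0.05, with 14 on the higher and 10 on the lower side and a median log2 fold change of 0.03. Calr, the calcium-binding chaperone calreticulin, had 12.59, 12.51 and 12.60 log2 in floxed arrays, against 12.39, 12.52 and 12.38 log2 in controls (log2 fold change 0.14, SE 0.09, limma adjusted p = 0.999). Pdia6, a disulfide isomerase gene, had 0.22 (SE 0.14). The regulators Atf4, Xbp1 and Ddit3 had 0.19, −0.17 and −0.03, and were named after their values were seen.

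Mitochondrial chaperones divided between both sides. Hspa9 encodes the mitochondrial HSP70, and had 11.46, 11.38 and 11.34 log2 in floxed arrays, against 11.28, 11.17 and 11.09 log2 in controls. All floxed values lay above all controls, with a log2 fold change of 0.22 (SE 0.11, 95% confidence interval −0.02 to 0.45, limma adjusted p = 0.999). Of its 16 tested probe sets 14 lay on the higher side, and with the dim probe sets included the gene had a log2 fold change of 0.02. Trap1, the mitochondrial HSP90, had 10.08, 10.25 and 10.14 log2 in floxed arrays, against 10.17, 10.48 and 10.29 log2 in controls (log2 fold change −0.16, SE 0.13). Its 17 probe sets disagreed, from −0.31 to 0.62, and their mean gave 0.08 in place of the median.

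The chaperonin partners HSP60 and HSP10, which fold proteins together in the mitochondrial matrix, are encoded by Hspd1 and Hspe1. Hspd1 had 10.60, 10.53 and 10.93 log2 in floxed arrays, against 10.45, 10.94 and 10.88 log2 in controls (log2 fold change −0.07, SE 0.16). Hspe1 had 10.34, 10.24 and 10.40 log2 in floxed arrays, against 10.36, 10.33 and 10.30 log2 in controls (log2 fold change −0.01, SE 0.12). Both pairs of groups overlapped, and Dnaja3, the mitochondrial J-domain protein, had 0.05. Over the 5 mitochondrial members the median log2 fold change was −0.01, with 0.11 when control replicate 2 was left out, 0.07 for floxed replicate 2 and 0.08 for probe-set means. Of 16 tested genes of mitochondrial protein quality outside the list, 11 lay on the higher side with a median of 0.09 and 0 passed. Grpel1, the exchange factor of mitochondrial HSP70, had 9.42, 9.42 and 9.56 log2 in floxed arrays, against 9.32, 9.16 and 9.02 log2 in controls, without overlap (log2 fold change 0.30, SE 0.14, limma adjusted p = 0.999). Lonp1, a protease of the mitochondrial matrix, had 0.28 (SE 0.17).

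The 215 bases between divergent RefSeq starts of both chaperonin genes are shown because 1 stretch lies before a start of each gene. It is at chr1:55087933-55088147 of GRCm38.p6 on the plus strand, the strand of Hspe1. Another RefSeq start of Hspd1, at chr1:55088243, lies outside this stretch, and its window held no heat shock element. Capitals mark overlapping heat shock elements of 3 units, spelled GAANNTTC followed by any 2 bases and GAA, on either strand. The promoter of Dnajb6 at chr5:29735829-29735978, plus strand, is set beside it with the same motif in capitals.

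Hspd1-Hspe1: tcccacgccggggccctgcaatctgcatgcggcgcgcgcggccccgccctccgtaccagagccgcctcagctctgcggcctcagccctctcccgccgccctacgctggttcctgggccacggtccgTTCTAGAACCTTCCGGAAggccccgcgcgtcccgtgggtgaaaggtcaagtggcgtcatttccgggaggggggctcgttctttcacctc
Dnajb6: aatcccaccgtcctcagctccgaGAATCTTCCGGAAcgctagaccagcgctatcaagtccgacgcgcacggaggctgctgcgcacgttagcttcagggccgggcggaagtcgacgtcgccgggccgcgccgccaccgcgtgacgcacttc

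Promoter windows, 250 bases before to 50 after a RefSeq start, were matched by symbol for 31 of the 37 genes. Hspa8, Hspa9, Hsp90aa1, Hsp90ab1, Hsf1 and St13 had no matched window, so the shares and medians below leave them out. The shorter heat shock element GAANNTTC, which reads the same on both strands, occurred in windows of 10 of the 31 genes (32.3%), against 9.04% of all 27025 genes with a window. The element of 3 units, which contains the shorter one, occurred in 4 genes (12.9%) against 0.662%, and the endoplasmic reticulum stress element in 3 genes (9.68%) against 0.137%. A gene counted where any of its windows held the element, as for Dnaja1. A match is a run of letters and not a measured binding site. Of the 10 genes with the shorter element 7 were tested, and their log2 fold changes ran from −0.07 to 0.63 with a median of 0.01. The 21 tested genes whose windows lacked it ran from −0.16 to 0.39 with a median of 0.10.

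The heat shock factors themselves did not pass. Hsf1, the main activator of the heat shock response, had 10.12, 10.23 and 9.98 log2 in floxed arrays, against 10.34, 9.84 and 10.01 log2 in controls. The floxed values lay inside the range of the controls, with a log2 fold change of 0.05 (SE 0.15, 95% confidence interval −0.29 to 0.39). Hsf2, a related factor, had 8.93, 8.45 and 8.97 log2 in floxed arrays, against 8.80, 8.31 and 8.08 log2 in controls. Control replicate 1 stood above floxed replicate 2, and the log2 fold change was 0.39 (SE 0.22, limma adjusted p = 0.999), with 8 of 9 probe sets on the higher side.

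Other heat shock and cochaperone genes outside the list spread to both sides. Of 33 tested, 20 lay on the higher and 13 on the lower side, with a median log2 fold change of 0.05 and 0 passing in limma. Hspbp1, an exchange factor that restrains HSP70, had 9.41, 9.50 and 9.65 log2 in floxed arrays, against 9.92, 9.95 and 9.78 log2 in controls. All floxed values lay below all controls (log2 fold change −0.37, SE 0.13), and limma gave an adjusted p of 0.999. Fkbp5, an HSP90 cochaperone of steroid receptors, had 9.13, 9.11 and 9.21 log2 in floxed arrays, against 8.47, 9.0 and 8.83 log2 in controls, with all floxed values above all controls (log2 fold change 0.38, SE 0.17, limma adjusted p = 0.999).

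Single probe sets of the members leaned to the higher side. Of 353 tested probe sets 0 passed in limma (smallest adjusted p = 0.975), where 0.00414% of all 120788 probe sets did. An unadjusted p under 0.05 was reached by 28 of them (7.93%), against 4.35% of all probe sets, and all 28 were higher in floxed arrays. Among all probe sets at that level, 3872 were higher and 1383 lower. Probe sets of a gene share its transcripts and are not replicates, and Hspa9 gave 4 of the 28 while Hspa4 and Hsf2 gave 3 each. The count moved with single arrays, as did that over all probe sets. It was 7 (1.98%, against 1.76% of all probe sets) without floxed replicate 1, 17 (4.79% against 2.24%) without floxed replicate 2 and 17 (4.87% against 4.76%) without floxed replicate 3. It was 67 (18.9% against 14.3%) when control replicate 1 was left out, 29 (8.15% against 3.97%) for control replicate 2 and 13 (3.66% against 3.89%) for control replicate 3. Without floxed replicate 1, floxed replicate 3 or control replicate 3 the members' share was thus close to that of all probe sets.

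**Figure D4:**
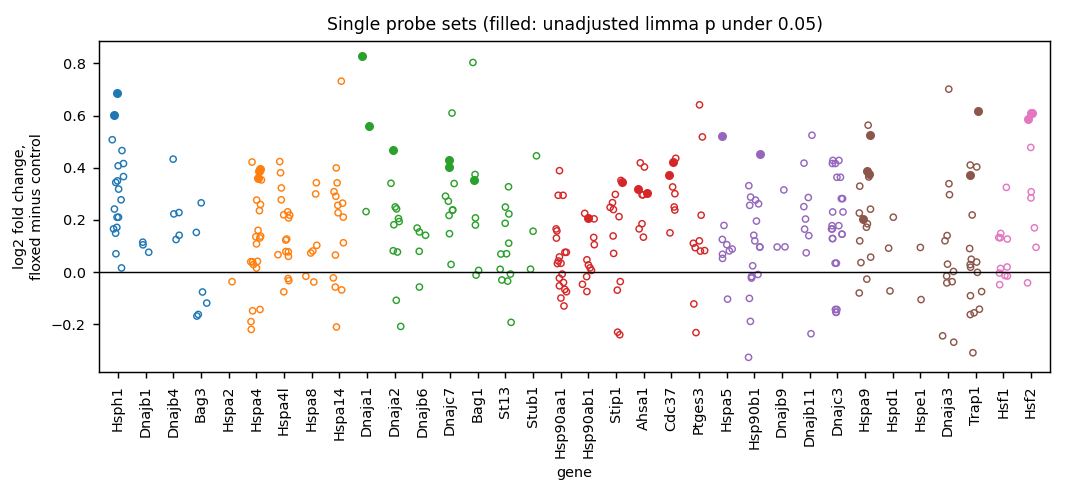
Log2 fold change, floxed minus control (y axis), of each of the 353 tested probe sets by gene (x axis), coloured by role, with filled points for an unadjusted limma p under 0.05. All 28 filled points lie above 0, and those of Dnaja1 and Hsph1 reach 0.83 and 0.69.

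No pair of partner chaperones passed a test of co-variation over the 6 arrays. Of 8 listed pairs 7 could be measured, and 0 passed after adjustment over the 7 (smallest adjusted exact permutation p = 0.600). Hspd1 and Hspe1 had a Pearson r of 0.32 (exact permutation p = 0.557) and a Spearman rho of 0.09 (exact permutation p = 0.919), and r was 0.13 without the 2 arrays farthest from the median of Hspd1. Hspa5 and Hsp90b1 had r of 0.11 and rho of −0.09 (exact permutation p = 0.925 and 0.919), and −0.92 without the 2 farthest arrays. Hsp90aa1 and Hsp90ab1 had r of −0.10 and rho of −0.03 (exact permutation p = 0.867 and 1.0), and 0.96 without the 2 farthest arrays. The values of r without the 2 farthest arrays rest on 4 arrays each, and no reading was drawn from the turned signs.

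The widest values of r belonged to pairs with Hsph1. Hsph1 and Hspa8 had r of −0.66 and rho of −0.60 (exact permutation p = 0.149 and 0.242), and −0.55 without the 2 farthest arrays. Hsph1 was lowest on control replicate 3, where Hspa8 was high. Hsp90aa1 and Hsph1 had r of 0.57 and rho of 0.66 (exact permutation p = 0.235 and 0.175), and 0.36 without the 2 farthest arrays. Hspa9 and Hspd1 had r of −0.55 and rho of −0.37 (exact permutation p = 0.257 and 0.497), and −0.44 without the 2 farthest arrays. Hspa8 and Dnaja1 had r and rho of −0.09 (exact permutation p = 0.853 and 0.919), and 0.25 without the 2 farthest arrays.

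**Figure D5:**
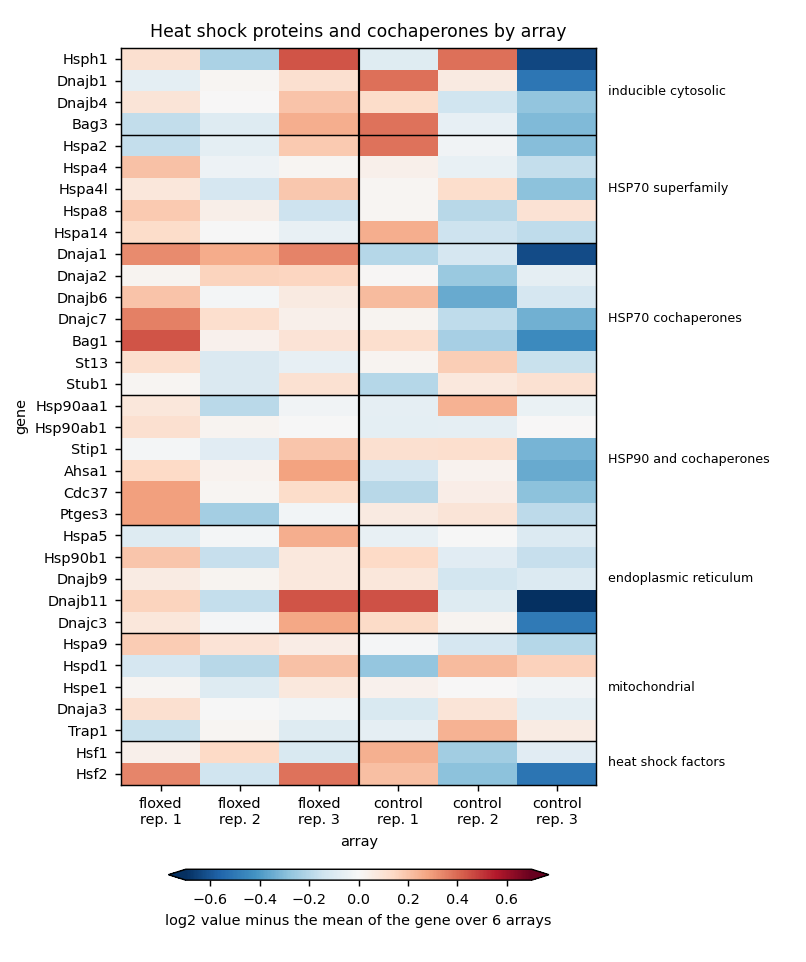
Log2 value of each tested member (y axis, grouped by role) minus its mean over the 6 arrays (x axis), in red above and blue below the mean. The column of control replicate 3 is mostly blue, with the lowest value of 20 of the 34 genes. The rows of Dnaja1 and Dnajc7 are among those above the mean on all 3 floxed arrays.

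The spread between replicates differed by group as it did over all genes. The median SD of the members was 0.13 log2 in floxed arrays and 0.19 log2 in controls, against 0.14 and 0.23 log2 over all genes, and the control SD was the larger one for 27 of 34 members (79.4%) and for 73.6% of all genes. Inducible genes had a median SD of 0.16 log2 in floxed arrays and 0.40 log2 in controls. Endoplasmic reticulum genes had medians of 0.18 log2 in floxed arrays and 0.15 log2 in controls, although the control SD was the larger one for 3 of the 5.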

How the data were processed

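The deposited table held expression values of 241576 probe sets on 6 arrays, read as log2 because they ran from 2.44 to 14.53 (the authors' log base is not stated). MAS5 is the tool listed in the submitters' processing notes, without its role. Other steps are not given in the sources used here. Per the labels' protocols, biotinylated cRNA was made from sorted cells. Array medians were 7.56 to 7.65 and no further normalization was applied. The number of arrays limits the precision.

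Symbols came from the platform annotation, updated by RefSeq (GRCm38.p6, names and promoter windows). Probe sets whose 6-array mean was under the median of all probe-set means (7.60) were dropped, and those left that named a single gene were summarised by their median. Floxed and control arrays were compared with limma 3.58.1 in R 4.3.3 (eBayes with trend), with Benjamini-Hochberg adjustment over all genes. Pair correlations used exact permutation tests. Of the steps, only the gene-level limma fit was tested on simulated data, with planted changes larger than any difference among the members. The full set of values is given for the 2 members with the smallest p in each role group and for the members that define each compartment, and other lists are represented by the 2 genes with the smallest p, with marker lists given mainly by their sums. Values of Dnajb1, Dnaja2 and Bag1 on each array were added after they were seen. Members and lists were chosen with earlier results of these data known.

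Alternatives were other normalizations, filters, gene values and eBayes settings, array weights, a replicate block and leaving out each array.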

Additional observations from a re-analysis of the deposited data

How the results depend on the processing

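No heat shock protein or cochaperone gene passed in limma under the 15 alternatives, and none of their probe sets did under the 14 that apply to probe sets. Over all genes the count of calls was 0, with 2 under no filter, 1 for probe-set means, 404 with array weights and 0 to 2 when 1 array was left out. Array weights were 0.27 and 0.40 for control replicates 1 and 3 and 3.37 for control replicate 2. The median log2 fold change of the members ran from 0.05 to 0.18 over the alternatives. Members whose groups do not overlap, a count added after the data were seen, numbered 8 for probe-set means (23.5%, against 8.71% of all genes). When 1 array was left out they numbered 4 to 12. The count was 8 when floxed replicate 2 was omitted (23.5% against 14.3%), 7 for control replicate 2 (20.6% against 16.9%) and 12 for control replicate 1 (35.3% against 35.2%). It lay below the share of all genes when floxed replicate 1 (4, 11.8% against 13.0%), floxed replicate 3 (5, 14.7% against 18.5%) or control replicate 3 (5, 14.7% against 16.9%) was omitted. Such members numbered 3 with no filter (8.57% against 10.5%, with Trap1 on the lower side) and 3 under equal medians (8.82% against 8.71%).

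Among the members given in full, the sign of 10 turned under some alternative, including Hsph1, Dnajb11 and Trap1, which were not near 0. With array weights Hsph1 had −0.21 and Hspa4l −0.061. With the mean of probe sets Hsp90aa1 had 0.063, Hspd1 0.077 and Trap1 0.077. Hspd1 had 0.069 with no filter, and Hsf1 −0.016 at the 75th percentile filter. When 1 array was left out Hsph1 ran from −0.041 to 0.47, Hspa4l from −0.018 to 0.23, Hspa8 from −0.033 to 0.14, Hsp90aa1 from −0.15 to 0.013, Hspa5 from −0.00060 to 0.17, Dnajb11 from −0.034 to 0.58, Hspd1 from −0.23 to 0.16, Hspe1 from −0.042 to 0.039 and Hsf1 from −0.062 to 0.19. No pair correlation passed. Pearson r of Hspa5 and Hsp90b1 was −0.038 under quantile normalization and −0.098 under equal medians, that of Hsp90aa1 and Hsp90ab1 0.35 with quantile normalization and 0.30 for probe-set means, that of Hspa8 and Dnaja1 0.18 at the 75th percentile filter and 0.19 for probe-set means, and that of Hspa9 and Hspd1 0.49 with no filter and 0.34 with the mean of probe sets. The cause of these changes was not tested.

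Deviations of same-numbered arrays from their group means correlated at 0.20, −0.0037 and −0.24, and those of differently numbered arrays at −0.29 to 0.29. With 3 arrays per group these deviations constrain one another. The values therefore cannot decide whether replicate numbers mark pairs of samples, and the labels do not say. With the replicate block 0 genes and 0 members passed. No detection calls were used, so how far dim members stood above background is not known.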
